A study of Homo sapiens with 12 samples.

Results

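H3K9me3 peaks of wild-type 293T cells on chromosomes 1 to 22 are described here. They were all the regions that the authors' wild-type peak list places on those chromosomes, 42985 of the 46898 regions of that list and of 112068 regions in both peak lists of the series. The other 3913 wild-type regions lie on chromosome X (3467), on chromosome Y (22) or on unplaced and alternate sequences (424), and were not analysed here. 293T is a laboratory line of human embryonic kidney origin that expresses the large T antigen of SV40. The labels give the genotype of these cells as WT and name no treatment, beside cells of the same line that lack SMARCA3. Chromatin fixed with formaldehyde and sheared by sonication was precipitated with an antibody against H3K9me3, in 3 ChIP libraries beside 3 libraries of input chromatin, which the labels describe as biological triplicates. The list is a single set of regions with no value per library. The read depth and the spread between the triplicates are therefore unknown, no test between libraries was possible, and the way the libraries were combined is not given in the sources used here. A peak list measures no expression, so the cell line was not checked against marker genes.

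H3K9me3 is the trimethylated form of lysine 9 on histone H3. It is written by SETDB1 and the SUV39H enzymes, is bound by the HP1 proteins, and marks constitutive heterochromatin at centromeres, telomeres and silenced transposable elements. SETDB1 is brought to many of its targets by TRIM28 (KAP1), which binds the KRAB domain of a large family of C2H2 zinc finger proteins. The genes for these zinc finger proteins sit in clusters, many of them on chromosome 19, and their coding 3′ ends are known in several human cell types to carry H3K9me3 themselves.

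The peaks were nearly absent from the starts of protein-coding genes. In a window from 250 bases before to 50 bases after the start of each gene, taken from RefSeq (GRCh38.p14), 16 of 15101 protein-coding promoters met a peak by at least 1 bp, or 0.106% (Wilson 95% interval 0.0652 to 0.172). For comparison, 1.06% of all bases of the chromosomes lay under a peak. The 16 were poor in CG dinucleotides, with a median of 3.5 CG in 300 bases beside 22 over all promoters. A peak met 15 of the 5129 promoters with fewer than 15 CG (0.292%, 0.177 to 0.482) and 1 of the 9972 promoters with 15 or more (0.0100%, 0.00177 to 0.0568). Zinc finger genes supplied 3 of the 16, from 467 promoters of that family (0.642%, 0.219 to 1.87). Of the 16 promoters, 7 lay whole inside a peak: those of IQCF3, ZNF404, XCR1, UTP14C, ZNF117, AKR1D1 and PRSS38. The 250 bases before the gene start are printed below for the 3 of these 7 with the highest fold, and for the CG-rich exception, ZNF454, so that their CG content can be seen. The sequences are RefSeq's (GRCh38.p14), run 5′ to 3′ on the strand of the gene, and have each CG in capitals (CG reads the same on both strands, and 98.1% of all the 300-base promoter windows hold at least 1).
IQCF3, chr3:51829176-51829425, plus strand: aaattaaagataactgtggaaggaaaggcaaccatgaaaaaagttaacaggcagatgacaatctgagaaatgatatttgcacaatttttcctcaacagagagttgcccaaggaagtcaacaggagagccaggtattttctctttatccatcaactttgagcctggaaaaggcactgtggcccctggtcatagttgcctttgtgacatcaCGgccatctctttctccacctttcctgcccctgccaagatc
ZNF404, chr19:43883965-43884214, minus strand: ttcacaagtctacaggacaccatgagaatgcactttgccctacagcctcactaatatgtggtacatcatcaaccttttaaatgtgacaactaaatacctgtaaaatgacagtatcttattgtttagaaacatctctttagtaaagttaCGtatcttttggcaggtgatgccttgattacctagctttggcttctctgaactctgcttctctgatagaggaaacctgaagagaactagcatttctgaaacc
XCR1, chr3:46027484-46027733, minus strand: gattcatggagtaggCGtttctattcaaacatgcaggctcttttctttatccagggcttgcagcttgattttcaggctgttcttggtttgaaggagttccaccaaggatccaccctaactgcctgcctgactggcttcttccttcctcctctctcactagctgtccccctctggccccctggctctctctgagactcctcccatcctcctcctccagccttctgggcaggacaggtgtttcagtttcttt
ZNF454, chr5:178940948-178941197, plus strand: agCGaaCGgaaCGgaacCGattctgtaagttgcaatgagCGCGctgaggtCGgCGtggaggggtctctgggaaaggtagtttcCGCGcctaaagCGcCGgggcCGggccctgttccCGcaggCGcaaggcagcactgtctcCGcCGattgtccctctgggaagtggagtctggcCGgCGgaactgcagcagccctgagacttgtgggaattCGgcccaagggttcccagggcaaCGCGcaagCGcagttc

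CG stands once in each of the first 3 of these stretches and 23 times in that of ZNF454. The promoter of IQCF3, a gene of the IQ motif family, lay inside a peak of 2156 bp whose fold over background, as the authors give it, was 6.51. That of ZNF404, a zinc finger gene on chromosome 19, lay inside a peak of 2450 bp with a fold of 5.19. XCR1 encodes a chemokine receptor of dendritic cells, and its promoter lay inside a peak of 1239 bp with a fold of 4.94. The peak at ZNF454 was small, with 273 bp and a fold of 3.16, and held 258 of the 300 bases of that promoter. The other members of the 16 were met in part only, among them the promoters of ESR1, the oestrogen receptor, of PCDHGA5, a clustered protocadherin, and of KRTAP10-5 and KRTAP7-1, which encode hair keratin-associated proteins.

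Around gene starts the covered share fell in steps. For the 14634 protein-coding genes outside the zinc finger family, peaks covered 0.965% of the bases from 50 to 10 kb before the start, 0.443% from 3 to 1 kb before it and 0.147% of the last 1 kb. The first 1 kb after the start was the least covered stretch, at 0.0486%, and the share then came back to 0.224% at 1 to 3 kb, 0.665% at 3 to 10 kb and 0.862% at 10 to 50 kb. The 467 genes for C2H2 zinc finger proteins had the same low point at the start on a much higher level. Their covered share was 8.61% from 50 to 10 kb before the start, 3.59% in the last 1 kb, 2.02% in the first 1 kb, and 10.6% already at 1 to 3 kb inside the gene. The plot of coverage by distance from the start shows both curves.

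**Figure D1:**
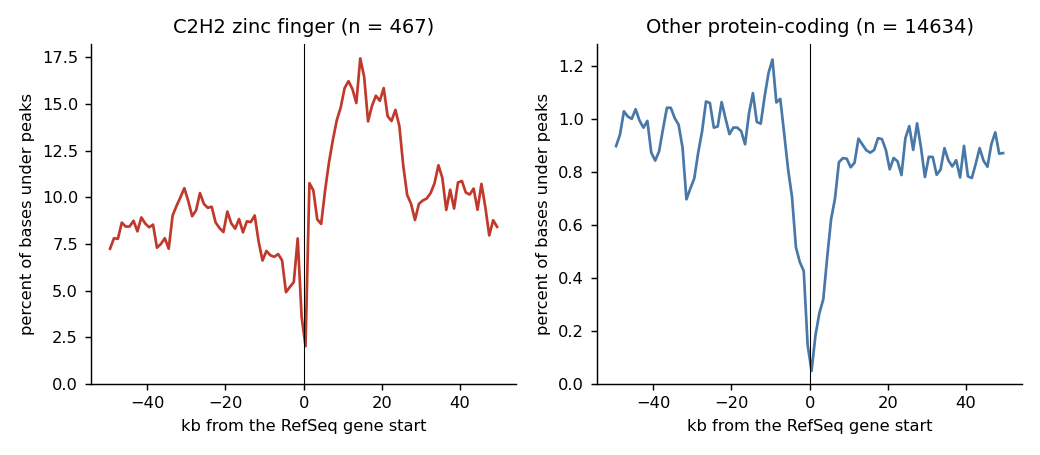
Percent of bases under peaks in steps of 1 kb from 50 kb before to 50 kb after the RefSeq gene start (vertical line), for 467 C2H2 zinc finger genes (left) and 14634 other protein-coding genes (right); the vertical scales differ. Both curves have their lowest point in the first 1 kb after the start, at 2.02% and 0.0486%.

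Together the peaks covered 30.5 Mb, or 1.06% of a span of 2873.93 Mb, with 14.96 peaks per Mb. The median width was 484 bp, with quartiles of 339 and 817 bp, the narrowest peak was 265 bp and the widest 22535 bp. Wide regions were few and held much of the covered length. The 7738 peaks of 1 kb or more were 18.0% of the peaks and held 44.5% of the covered bases, and the 1817 peaks of 2 kb or more were 4.23% of the peaks and held 17.9%. A width of 5 kb was reached by 109 peaks, and 10 kb by 16. The fold had a median of 3.77 with quartiles of 3.40 and 4.25, and ranged from 1.39 to 20.3. Wider peaks had higher folds (Spearman's rho 0.47 over the 42985 peaks, as a description), and the median width was 383, 378, 495 and 949 bp in 4 groups of about equal size, from the lowest to the highest fold. Merging peaks at most 1 kb apart gave 28228 domains with a median width of 765 bp, so the width depends on where a region is taken to end.

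The 5 peaks of highest fold and the 5 widest had no peak in common, but high fold and great width did overlap. Peaks with both included those on chromosome 10 with folds of 18.5 (10383 bp) and 15.1 (11989 bp), and that in ZNF184 (fold 10.1, 10176 bp). The 5 peaks of highest fold were all intergenic. A neighbouring pair was on chromosome 20, at 31066739 to 31069485 (fold 20.3) and 31057660 to 31066551 (fold 18.6). Another pair was on chromosome 10, at 41880713 to 41891095 (fold 18.5) and 41853774 to 41865762 (fold 15.1), and 1 was on chromosome 1, at 125167911 to 125171196 (fold 15.5). Of the 47 peaks with a fold of 10 or more, 37 were of the intergenic class, and 13 lay on chromosome 1, 8 on chromosome 10, 7 on chromosome 13 and 5 on chromosome 20. The other 10 were given to genes, among them DNAH14, an axonemal dynein heavy chain (fold 11.2), the protocadherin gene PCDH9 with 2 peaks (folds 10.4 and 10.1), and the zinc finger genes ZNF184 (10.1) and RBAK (10.3), of which the second is outside the list made by symbol. The widest peak lay in ZNF678 on chromosome 1, at 227644102 to 227666636, and the fifth widest in ZNF721 on chromosome 4, at 433021 to 450952 with 17932 bp and a fold of 9.84. The second to the fourth were intergenic, at 24366359 to 24388219 and 24330342 to 24348428 on chromosome 19 and at 89787222 to 89808521 on chromosome 2. Bodies of zinc finger genes met 44 of the 109 peaks of 5 kb or more (40.4%, 31.6 to 49.8) and 1732 of the 35247 peaks under 1 kb (4.91%, 4.69 to 5.14). Among the 47 peaks with a fold of 10 or more they met 1.

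Peaks were spread unevenly over the chromosomes, with the 2 densest standing far above the others. Chromosome 19 had 2298 peaks, or 39.2 per Mb (exact Poisson 95% interval 37.6 to 40.9), and chromosome 13 had 3818, or 33.4 per Mb (32.3 to 34.5). Chromosomes 1, 6, 7 and 10 followed with 20.8, 19.9, 16.8 and 16.1 per Mb. The lowest values were 8.74 on chromosome 15, 8.66 on chromosome 22 and 7.60 (7.05 to 8.19) on chromosome 16. In this order 18 of the 21 pairs of neighbours had overlapping intervals, and the breaks came after chromosomes 19, 13 and 6. These intervals cover counting error only and treat peaks as independent, although the variance of the number of peaks per 1 Mb window was 23.3 times its mean, so they are too narrow. The span also takes in stretches with neither a gene nor a peak, 130 windows of 1 Mb in all, which lowers the values of the chromosomes that hold them. No copy number was measured in the list, so the values are not adjusted for it.

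Chromosomes 13 and 19 held 14.2% of the peaks and 15.7% of the covered bases on 6.02% of the span. Covered bases made up 2.87% of chromosome 19 and 2.71% of chromosome 13, beside 0.953% of the other 20 chromosomes as a whole and 0.528% of chromosome 16. By gene content the 2 were opposites, since chromosome 19 has 24.8 protein-coding genes per Mb, 264 of them in the C2H2 zinc finger list, and chromosome 13 has 2.96 per Mb and none of that list. Over the 22 chromosomes, peaks per Mb and protein-coding genes per Mb had a Spearman's rho of -0.23 and a Pearson's r of 0.44, and without chromosomes 13 and 19 of -0.33 and -0.21. These coefficients describe this list, and the 2 measures disagreed in sign while both chromosomes were included. The class of the peaks differed as well. On chromosome 13, 24.7% of the peaks were of the gene body class (Wilson 95% interval 23.4 to 26.1), beside 46.9% on the other chromosomes together, 49.8% on chromosome 19, 58.3% on chromosome 14 and 61.3% on chromosome 15. RefSeq genes take 42.8% of chromosome 13 and 63.6% of chromosome 19.

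**Figure D2:**
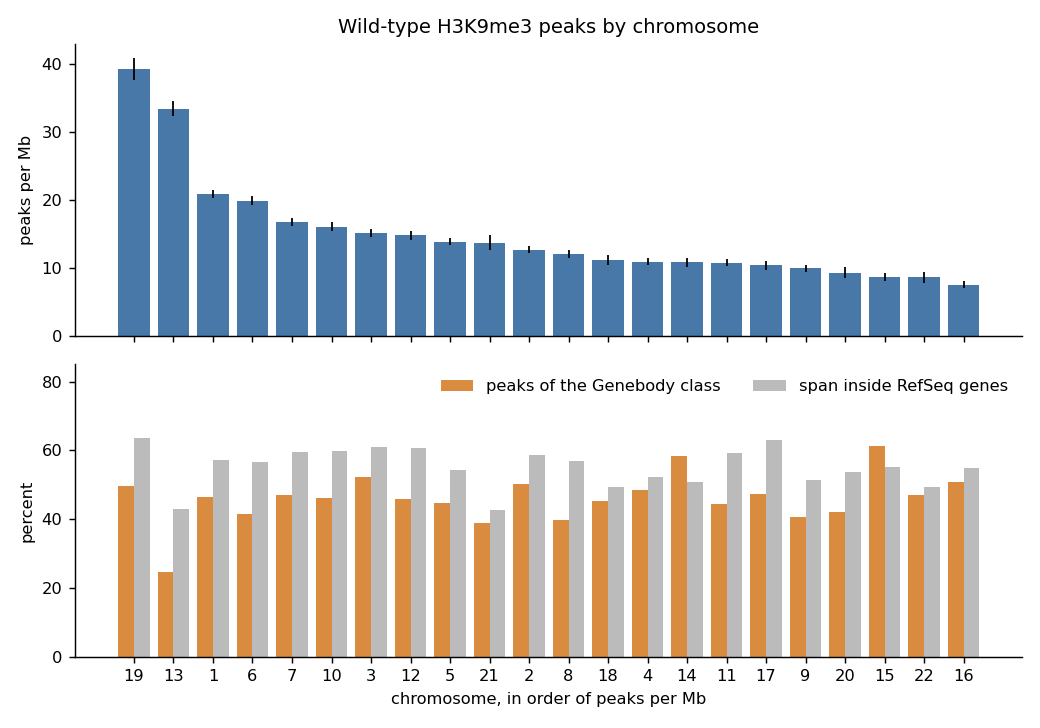
Top, peaks per Mb on each chromosome with exact Poisson 95% intervals (counting error only), in descending order; bottom, the percent of peaks of the gene body class and the percent of the span inside RefSeq genes. Chromosomes 19 (39.2) and 13 (33.4) stand above the rest, and chromosome 13 has the lowest gene body share at 24.7%.

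In windows of 1 Mb, 2556 of 2886 windows held peak bases, or 88.6%, and 330 held none. Of the 330 windows without a peak, 130 had no RefSeq gene either. The median window had 6606 covered bases and the mean window 10573, and the densest 1%, 5% and 10% of windows held 10.8%, 28.6% and 41.7% of all covered bases. The densest 10% were 289 windows with at least 22757 covered bases. Among them were 72 of the 249 windows of chromosome 1, 36 of the 115 of chromosome 13 and 19 of the 59 of chromosome 19. Dense windows lay side by side, with a Spearman's rho of 0.56 between a window and the next over 2864 pairs. The 289 windows formed 161 stretches, 110 of them of a single window. With windows of 5 Mb the share without a peak was 4.09%, and with windows of 500 kb it was 18.5%.

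Covered bases were not a simple function of gene number. The median was 1360.5 bases in windows without a protein-coding gene, 5323 with 1 or 2 genes, 8568.5 with 3 to 5, 9284 with 6 to 10, 7129.5 with 11 to 20 and 4241 with 21 or more. By the median, windows in the middle of this range thus had more covered bases than either end. The mean did not fall in the same way, and was 11723 bases with 21 or more genes. That was above the 11009 with 3 to 5 and the 10798.5 with 11 to 20, and below the 12368 with 6 to 10. Windows without a protein-coding gene had the lowest mean, 7994 bases, and 36.7% of them had no peak. The single densest window was nevertheless 1 without any protein-coding gene, at 65 to 66 Mb on chromosome 13, with 205 peaks on 177866 bases and 98.5% of the peaks intergenic. The 10 densest windows were of 3 kinds. Apart from that window, chromosome 13 supplied those at 66 to 67 Mb, which holds part of PCDH9, and at 64 to 65, 63 to 64 and 62 to 63 Mb, which hold 2 protein-coding genes in all. Chromosome 19 supplied the windows at 36 to 37 Mb (227 peaks, 15 zinc finger genes among 25 protein-coding genes), 57 to 58 Mb (177 peaks, 33 of 40) and 37 to 38 Mb (216 peaks, 14 of 16). The last pair were 227 to 228 Mb on chromosome 1, with ZNF678, the kinase gene CDC42BPA and the protease gene PRSS38, and 133 to 134 Mb at the end of chromosome 12, with 6 zinc finger genes among 7 protein-coding genes.

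The longest run of dense windows was on chromosome 13. From 61 to 95 Mb, 34 adjacent windows were all among the densest 10%. They held 3162 of the 3818 peaks of the chromosome, 7.93% of their bases were covered, and 78.0% of the peaks were intergenic. The other 81 windows of chromosome 13 held 656 peaks, with 0.502% of the bases covered and 52.1% of the peaks of the gene body class. Over the 64 of them with a RefSeq gene, 0.635% of the bases were covered. The stretch is gene-poor, with 42 protein-coding genes, of which 22 met a peak with their body (52.4%), beside 21% of all protein-coding genes. That comparison is not matched for gene length, and PCDH9, GPC5, GPC6 and KLF12 are 620 to 1469 kb long. The stretch was picked by covered bases, so its coverage and its share of genes with a peak are high by that choice. Its most covered genes were PCDH9, a non-clustered protocadherin (130 peaks meeting the RefSeq body), the glypican genes GPC5 (112 peaks) and GPC6 (60), and KLF12, a Krüppel-like repressor (29). Per length SLAIN1, a microtubule plus-end protein, stood highest with 25% of its body under 8 peaks, followed by MZT1, a subunit of the gamma-tubulin ring complex, with 22.3% under 7 peaks and PCDH9 with 14.0%. The median gene of the stretch had 0.571% of its body covered. The next longest runs were 30 to 40 Mb on chromosome 18 (542 peaks, 4.74% covered, 4 zinc finger genes among 37 protein-coding genes), 227 to 235 Mb on chromosome 1 (398 peaks, 5.71%), and 84 to 91 Mb (278 peaks, 3.13%) and 236 to 243 Mb (262 peaks, 3.41%) on the same chromosome.

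On chromosome 19 the dense windows followed the zinc finger genes. The 21 windows with 5 or more such genes held 1858 of the 2298 peaks and were covered over 6.43% of their bases. The other 38 windows had 440 peaks and 0.873% of their bases covered, although both kinds had about the same number of protein-coding genes, 24.7 and 24.6 per window. On the other chromosomes, 10 windows had 5 or more zinc finger genes, and 4.26% of their bases were covered. Of these 31 windows, 23 were among the densest 10% of all windows, and their median was 53396 covered bases. The lowest of them, 55 to 56 Mb on chromosome 19, had 2790, so zinc finger genes were not covered everywhere.

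**Figure D3:**
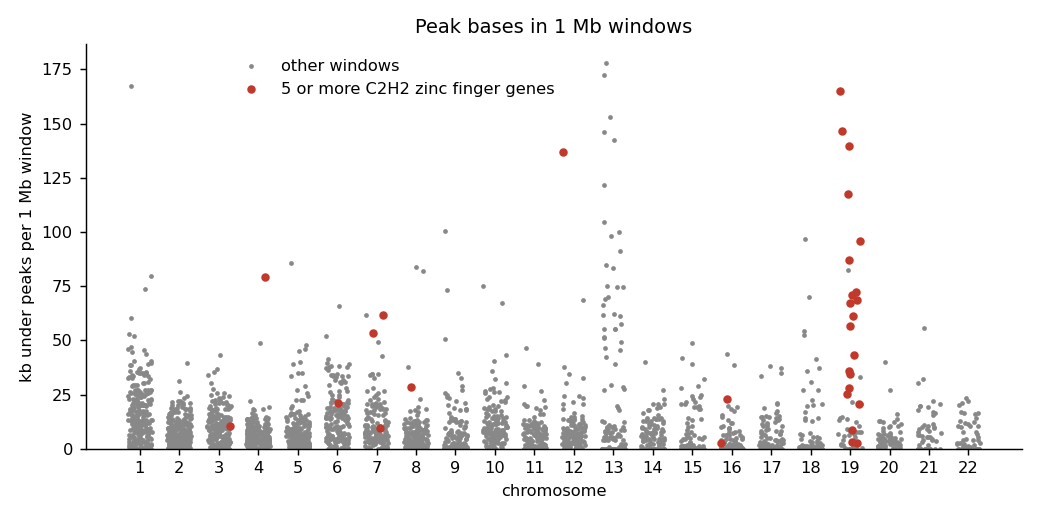
Peak bases in each of 2886 windows of 1 Mb, by chromosome; points are spread sideways within a chromosome with no meaning to their order, and windows with 5 or more C2H2 zinc finger genes are red. The highest grey points are on chromosomes 13 and 1, and most high red points are on chromosome 19, with a few red points near 0.

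Gaps between neighbouring peaks spread over several orders of magnitude. The median gap was 8.20 kb and the mean 64.2 kb, 34.3% of the 42963 gaps were 1 kb or less, 51.8% were 10 kb or less and 16.6% were over 100 kb. The shortest gap was 51 bp. The plot of gaps has 2 humps, 1 below 1 kb and 1 above 10 kb. The median gap was 1.098 kb on chromosome 19 and 3.41 kb on chromosome 13. Where peaks with gaps of at most 10 kb were joined, the list came to 20722 units, of which 11415 were lone peaks (26.6% of the peaks). Clusters of 10 or more peaks numbered 272 and held 5446 peaks, 12.7% of the list (Wilson 95% interval 12.4 to 12.99) and 14.7% of the covered bases. That share depended on the joining gap and on the fold, at 8.33% with a gap of 5 kb, 35.3% with 50 kb and 6.55% when the lower-fold peaks, those under the median, were left out.

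Of the 272 clusters, 59 lay on chromosome 13, 43 on chromosome 19, 25 on chromosome 7 and 23 on chromosome 1. These chromosomes held 8.88%, 5.35%, 6.21% and 12.1% of all peaks, in the same order. Chromosome 1 thus had the fewest clusters of the 4 although it held the most peaks. The clusters took in 58.2% of the peaks of chromosome 19 and 22.9% of those of chromosome 13. A body of a zinc finger gene was met by 73 of the 272 clusters (26.8%) and by 99 of the 11415 lone peaks (0.867%). These shares are not like for like, since the clusters had a median span of 34.2 kb and longer units meet gene bodies more readily. Of all peaks taken singly, 5.24% met such a body. Peaks in clusters of 10 or more were like lone peaks in median width (496 and 472 bp). The median fold was 3.77 in both, a tied value that is also the median of all peaks and of many chromosomes. Equal medians therefore do not show that the folds were alike. The classes differed, with 33.7% of the clustered peaks in gene bodies and 15.0% in the promoter classes, beside 46.8% and 8.19% of the lone peaks.

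The largest cluster by number of peaks covered the zinc finger genes at the end of chromosome 12, from 132965997 to 133224257. Its 135 peaks filled 57.4% of the 258 kb, over ZNF26, ZNF84, ZNF140, ZNF891, ZNF10, ZNF268 and the homeobox gene ANHX. The second, at 36478182 to 36779494 on chromosome 19, had 132 peaks over 7 zinc finger genes from ZNF566 to ZNF850 and was filled to 31.0%. The third and the fifth were on the same chromosome, at 51965457 to 52159294 with 100 peaks over 7 zinc finger genes (46.7% filled) and at 57464524 to 57643544 with 76 peaks over 10 protein-coding genes, 9 of them in the zinc finger list (41.6% filled). The fourth was of another kind. It lay at 43719636 to 43854330 on chromosome 8, had 78 peaks that filled 26.7% of 135 kb, met no protein-coding gene, and had a highest fold of 4.79, beside 9.92 in the cluster on chromosome 12.

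**Figure D4:**
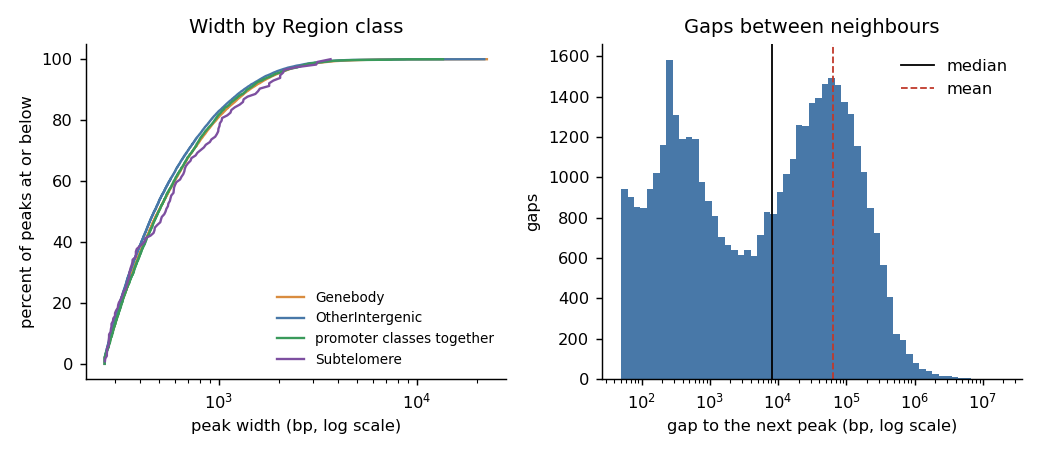
Left, cumulative percent of peaks by width (log scale) for the Region classes; right, number of gaps between neighbouring peaks by gap length (log scale, bins of equal ratio), with the median of 8.20 kb and the mean of 64.2 kb. The width curves of the classes lie close together, and the gaps form 2 humps with the median in the trough between them.

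The authors' annotation put 19864 peaks between genes (46.2%, Wilson 95% interval 45.7 to 46.7) and 19324 in gene bodies (45.0%, 44.5 to 45.4). The 3 promoter classes, which reach up to 3 kb from a transcript start on either side, held 3683 peaks (8.57%, 8.31 to 8.84). These were 2486 in the class up to 3 kb, 882 in the class up to 1 kb and 315 in the class nearest the start. The remaining 114 peaks (0.265%) were subtelomeric, 42 of them on chromosome 7 and 10 on chromosome 15. The share of gene body peaks was not above the share of the genome that genes take. By RefSeq, 52.8% of the peaks had their centre inside a gene of any kind (52.4 to 53.3), and such genes take 55.9% of the span. Which of the 2 large classes came first was not stable, since with the lower-fold peaks left out 46.5% were in gene bodies and 45.4% intergenic, and by covered bases 46.1% and 44.9%. The authors' intergenic class is partly genic by RefSeq, where 16.2% of its peaks had their centre in a gene.

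Width differed little between classes. The median was 471.5 bp for intergenic, 495 bp for gene body, 497 bp for promoter-class and 540.5 bp for subtelomeric peaks, and 3.74%, 4.66%, 4.51% and 7.02% of them were 2 kb or wider. The interval of the last share was 3.599 to 13.2%, which takes in the others. Gene body peaks lay deep inside the genes, at a median of 33550.5 bp from the transcript start, and 22.2% of them were over 100 kb from it. Of the promoter-class peaks, 2156 of 3683 (58.5%) were upstream of the start. The low share at RefSeq starts described above and this class are different measures, since the class counts any annotated transcript and reaches 3 kb. Of the 315 peaks in the class nearest a start, 115 were of protein-coding transcripts, and 160 of the type the authors call misc.

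By gene type, 16135 peaks (37.5%, 37.1 to 38.0) were given to protein-coding genes, 3808 (8.86%) to misc, 3011 (7.005%) to lincRNA and 53 to miRNA, and 19978 (46.5%) had no annotation. Protein-coding and lincRNA peaks were mostly in gene bodies (89.5% and 88.1%), and misc peaks less so, at 58.4%. The 5 highest folds in the class nearest a transcript start belonged to ZNF354B, a zinc finger gene on chromosome 5 (fold 10.0, 6594 bp), the miRNA gene MIR4273 (8.50, 7474 bp), the pseudogene RAC1P8 (7.59), the U6 pseudogene RNU6-809P (7.47) and the lincRNA FILNC1 (7.32).

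Genes were named for 23007 peaks, under 6765 names. A single peak was given to 2702 names (39.9%), and 85 names had 20 or more. The protein-coding genes with the most covered bases were long genes and a few zinc finger genes. PCDH9 came first with 114 peaks on 118339 bases, 12.8% of its length. DNAH14 had 74 peaks on 94409 bases (18.8%), and GPC5, whose product is a cell surface proteoglycan, had 103 peaks on 87396 bases (5.95%). ZNF678 reached 86289 bases with 47 peaks on a much shorter gene, of which they amounted to 75.8%. The next 6 were GPC6 (57957 bases), the neurexin-related adhesion gene CNTNAP2 (48166), ZNF721 (41214, 56.2% of its length), LRMDA (40855), the reelin adaptor gene DAB1 (40471) and KIAA1328 (34071). Of these 10 genes, 8 were again among the first 10 when peaks were counted over RefSeq bodies. KCNQ1, a potassium channel gene, and KLF12 then entered with 46 and 29 peaks, beside 16 and 8 by the authors' column, which gives each peak to 1 gene. With only peaks at or above the median fold, DNAH14 led and PCDH9 had 72285 bases.

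Among genes of other types, RNF219-AS1 on chromosome 13 had the most covered bases, with 52 peaks on 42819 bases. AL603840.1 (34058 bases) and PKN2-AS1 (33333) on chromosome 1 came next. KCNQ1OT1, the imprinted antisense RNA inside KCNQ1 that acts in silencing its neighbours, had 29 peaks on 25228 bases, or 27.5% of its 91667 bp. The authors' column gave 16 further peaks to KCNQ1 itself, and the list does not tell the strands of overlapping genes apart. LINC00376, LINC02240, LINC00624, LINC01170, ZNF37BP and OFCC1 completed the first 10 with 24729 to 20580 bases.

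Per length, the order was led by zinc finger genes throughout. Among 1851 protein-coding genes of at least 5 kb with at least 3 peaks, covered bases were 2.67% of the length at the median. The 10 highest were ZNF300, ZNF84, ZNF594, ZNF10, ZNF302, ZNF180, ZNF879, ZNF614, ZNF184 and ZNF776. Their values ran from 112% to 77.6%. A value above 100% arises because all bases of a peak count toward its gene, also those beyond its ends, and in ZNF300 the peaks covered 90.6% of the RefSeq body. Of the 42 genes of this group at 50% or more, 40 were in the zinc finger list. The 217 zinc finger genes of the group had a median of 25.9%. Both medians hold only for genes picked by having at least 3 peaks, and the comparison is not matched for gene length. Over all 555 zinc finger genes, the median share of the RefSeq body under peaks was 2.70%. It was 0% over the 291 of them off chromosome 19, and 0% over all protein-coding genes. Which genes come first depended on the gene model, since 4 of these 10 were again among the first 10 over RefSeq bodies, where all 10 were also zinc finger genes. Over all RefSeq bodies of at least 5 kb, 50 of 16172 protein-coding genes were covered to 50% or more, or 0.309%, and 47 of the 50 were zinc finger genes. Of other types, AC026786.2 (177%), the pseudogenes ZNF833P (117%) and ZNF847P (116%), AC117402.1 (55.0%) and ZNF37BP (54.0%) stood highest.

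Of 555 C2H2 zinc finger genes, 314 were given at least 1 peak (56.6%, Wilson 95% interval 52.4 to 60.6), beside 3972 of all 19126 protein-coding genes, or 20.8%. Their bodies take 0.764% of the span and held 6.998% of all covered bases. The share was 189 of 264 on chromosome 19 (71.6%, 65.9 to 76.7) and 125 of 291 elsewhere (43.0%, 37.4 to 48.7). The other protein-coding genes of chromosome 19 had a peak in 69 of 1187 cases (5.81%, 4.62 to 7.29), a share below that of all protein-coding genes. Among genes of like length, 10 to 50 kb, a peak met the body of 238 of 388 zinc finger genes (61.3%) and of 626 of 7399 others (8.46%). The most covered members were ZNF678, ZNF721, ZNF883 (41 peaks given to it, 18 of them meeting its RefSeq body) and ZNF782 (17 peaks). With only peaks at or above the median fold, the share was 48.1% of the zinc finger genes and 15.4% of all protein-coding genes.

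Within zinc finger genes the coverage rose toward the 3′ end. When each body of at least 5 kb was divided into 10 equal parts, 4.89% of the first and 15.2% of the last part were covered over 450 zinc finger genes. On chromosome 19 (221 genes) the share was 7.35% in the first part, stayed between 10.1% and 10.8% from the second to the fifth, and reached 17.6% in the seventh and 23.6% in the last. Elsewhere (229 genes) it went from 3.41% to 10.2%. The other 12491 protein-coding genes had the opposite order, with 0.944% in the first part, 1.23% in the second and 0.502% in the last.

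**Figure D5:**
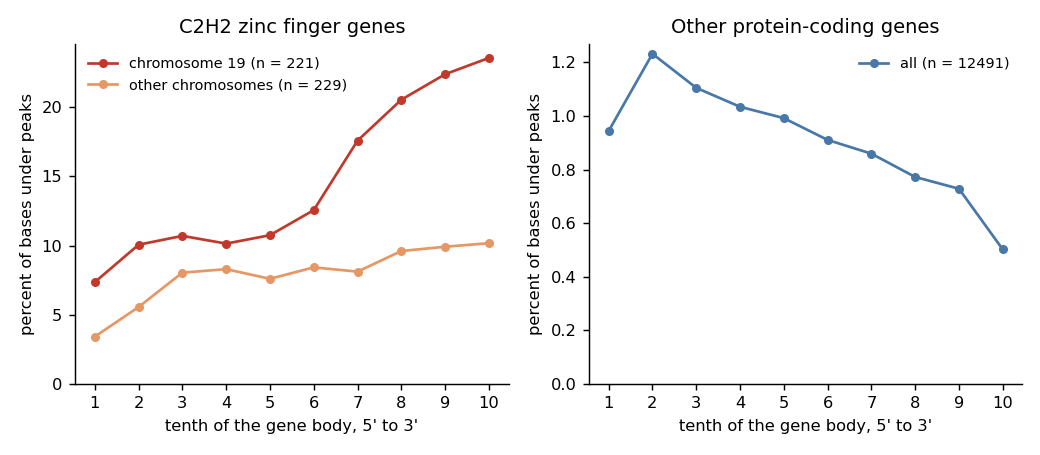
Percent of bases under peaks in 10 equal parts of RefSeq gene bodies of at least 5 kb, from the 5′ to the 3′ end, for C2H2 zinc finger genes on chromosome 19 and elsewhere (left) and for other protein-coding genes (right); the vertical scales differ. The zinc finger curves end at 23.6% and 10.2%, above their first values of 7.35% and 3.41%, and the curve of the other genes ends at 0.502%, below its first value of 0.944%.

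Long neuronal genes were met by peaks about as often as other long genes. In the list of long neuronal adhesion and synaptic genes, 42 of 53 were given a peak (79.2%, 66.5 to 88.0) and 43 met one with their body (81.1%, 68.6 to 89.4). By comparison, 79.7% of all protein-coding genes of 200 to 500 kb and 89.1% of those of 500 kb or more had a peak in their body. GPC5, GPC6, CNTNAP2 and DAB1 led this list, and peaks covered 0.728% of the bases of its genes. That share was 0.917% over all protein-coding genes of 500 kb or more. It was 0.869% over the protein-coding genes outside the zinc finger list, and 1.03% over all protein-coding genes. All 12 genes of the list of common fragile sites, which are very long, had a peak. Among them, DAB1, FHIT and MACROD2 had 51, 33 and 17 peaks, on 2.76%, 1.20% and 0.550% of their RefSeq bodies.

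Of the other cadherins and protocadherins, 9 of 33 had a peak (27.3%, 15.1 to 44.2), with the 20.8% of all protein-coding genes inside the interval. These genes are long, with a median of 135 kb beside 24.5 kb for all protein-coding genes. Of all protein-coding genes of 50 to 200 kb, 42.7% had a peak in their body, which is also inside the interval. The list was led by PCDH9 with PCDH15 (16 peaks) and the cadherin genes CDH18 (11) and CDH12 (9) far behind. Clustered protocadherins, whose variable exons share a locus on chromosome 5, had a peak in 15 of 53 genes (28.3%, 18.0 to 41.6), with 17 peaks in all, again with 20.8% inside the interval. With only the peaks at or above the median fold, the share was 7.55%, beside 15.4% of all protein-coding genes. PCDHGA5 had 3 of the 17, and PCDHB15, PCDHGA3 and PCDHGA6 had 1 each. The bodies of the gamma cluster genes overlap, and PCDHGA3 met 14 peaks with its body, of which the authors' column gave it 1.

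Among all protein-coding genes below 10 kb, 1.22% had a peak in their body (0.958 to 1.55). Olfactory receptor genes, most of them short, met a peak with their body in 16 of 391 cases (4.09%, 2.53 to 6.54), a share above that value. The authors' column also gave a peak to 16, but these were not all the same genes. Among the 16 of the authors' column were OR10H4 and OR10H3 on chromosome 19, OR2AT4 on chromosome 11 and OR2F1 on chromosome 7. OR2F1 met no peak with its body. By the authors' column, defensin genes had a peak in 2 of 45, DEFB125 (6 peaks) and DEFB128 (1). Bitter taste receptor genes had one in 1 of 25, TAS2R41. Neither DEFB128 nor TAS2R41 met a peak with its body. Keratin-associated protein genes had one in 7 of 94 by the authors' column, with 8 peaks for KRTAP10-4 and 1 of 3384 bp for KRTAP10-1. Only KRTAP19-2 met a peak with its body, however, which is 1.06% of that list. None of the 40 HOX genes and none of the 16 housekeeping genes had a peak, with upper limits of 8.76% and 19.4%. Of 85 histone genes, 1 had a peak, the testis linker histone H1-7, and it did not meet the gene's body. The UGT genes, which encode glucuronosyltransferases, are longer, with a median of 50.6 kb. A peak was given to 3 of 22 by the authors' column, and 10 of 22 met one with their RefSeq body (45.5%, 26.9 to 65.3). The UGT1A genes overlap each other there. All protein-coding genes of 50 to 200 kb had a peak in their body in 42.7% of cases, and those of 10 to 50 kb in 11.1%.

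Among 15 genes for H3K9 methylation and silencing, 4 had a peak (26.7%, 10.9 to 52.0), a share whose interval takes in the 20.8% of all protein-coding genes. ATF7IP, a partner of SETDB1, had 16 peaks on 8.79% of its body. SETDB2, a SETDB1-related methyltransferase, had 2. MORC2, which acts with the HUSH complex, and TASOR, a subunit of that complex, had 1 each, that of TASOR outside its RefSeq body. SETDB1, TRIM28 and the SUV39H2, EHMT and CBX genes of the list had none.

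Of 1461 miRNA hairpins in the RefSeq table, 8 met a peak, or 0.548% (0.278 to 1.08). The strongest was MIR1299 on chromosome 9, inside a peak of 5766 bp with a fold of 5.43. It was followed by MIR5586 (fold 5.35), MIR606 (4.30), MIR643 (3.80), MIR3683 and MIR4460 (3.45 each), MIR7850 (2.93) and MIR6760 (2.72). The mature miRNAs of the 4 with the highest fold are shown to see whether these loci belong to 1 seed family, with the seed, bases 2 to 8, in capitals.
hsa-miR-1299: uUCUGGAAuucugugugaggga
hsa-miR-5586-5p: uAUCCAGCuuguuacuauaugc
hsa-miR-5586-3p: cAGAGUGAcaagcugguuaaag
hsa-miR-606: aAACUACUgaaaaucaaagau
hsa-miR-643: aCUUGUAUgcuagcucagguag

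No seed was shared, and the 10 mature miRNAs of the 8 hairpins had 10 different seeds. MIR643 lies on chromosome 19 at 52281797 to 52281893, and MIR606 lies on chromosome 10 at 75552458 to 75552553. The list measures chromatin and not the miRNAs themselves.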

How the data were processed

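The wild-type H3K9me3 peak list is 1 of 2 lists in the series, and of the knockout list only the regions were counted. The submitters' processing notes name HISAT2 and hg38. For the peak calling, its settings and its use of inputs and triplicates, a description is not given in the sources used here. Labels list the molecule as total RNA, although the protocol describes chromatin immunoprecipitation. The deposited fold over background is a ratio and the deposited q-value a p-value adjusted within the list, per the file headers, which define neither further. The highest q-value was 0.00644. The authors' file also gives a Region class, a gene type, a gene name, its start and end and a distance from a transcript start.

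Positions were read as counted from 1. The span of a chromosome was taken from its first base to the highest end among RefSeq genes (GRCh38.p14) and peaks. Covered bases were summed per chromosome, per window of 1 Mb, per gene name and per RefSeq gene body. Clusters joined peaks with gaps of at most 10 kb. RefSeq matched 3964 of 4039 protein-coding names (98.1%). Gene families were taken by symbol, C2H2 zinc finger genes as the ZNF, ZFP, ZSCAN, ZKSCAN and ZIM symbols. Promoter and miRNA sequences came from RefSeq tables that are not complete.

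There were no replicate values, so no test was run. Shares have Wilson 95% intervals and peak counts exact Poisson 95% intervals, both for counting error only. The genes named are the 10 protein-coding and the 10 other genes with the most covered bases, the 10 and 5 with the most per length (at least 5 kb and 3 peaks), those of the 5 peaks of highest fold, of greatest width and of highest fold in the class nearest a start, up to 4 per gene list, and those of the 10 densest windows and 5 largest clusters. A gene that this rule would name is not reported here. Genes of the chromosome 13 stretch, KCNQ1, KLF12, the peaks with a fold of 10 or more, the promoters met and the miRNAs were named after their values were seen. The members and lists were chosen with earlier results of these data known. Alternatives changed the threshold on fold or q (the median of the list), merged peaks, window size and start, joining gap, weighting and gene assignment. Python 3.11.15, numpy 2.4.6, pandas 2.3.3 and scipy 1.17.1 were used, and the counting functions were tested on simulated data.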

Additional observations from a re-analysis of the deposited data

How the results depend on the processing

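Keeping only peaks at or above the median fold left 22335 peaks on 19.9 Mb with a median width of 650 bp. Under it chromosome 13 had 2.09 times the peaks per Mb of the genome, against 2.23 with all peaks, 16.8% of windows had no peak and 6.55% of peaks lay in clusters of 10 or more. The class shares became 46.5% gene body, 45.4% intergenic, 7.88% promoter and 38.4% protein-coding, and 48.1% of zinc finger genes and 15.4% of all protein-coding genes had a peak. Of the first 10 genes per length, 6 were found again. Keeping only peaks at or below the median q left 22145 peaks with a median width of 709 bp, 46.4% gene body, 44.5% intergenic and 39.5% protein-coding, and 49.5% and 16.2% of those genes with a peak. Merging peaks at most 1 kb apart gave 28228 domains with a median width of 765 bp, and chromosome 19 then had 2.05 times the peaks per Mb of the genome, against 2.62. By bases in place of peaks, the shares were 46.1% gene body, 44.9% intergenic and 39.3% protein-coding. Windows of 500 kb and 5 Mb gave 18.5% and 4.09% without a peak, and 46.0% and 35.0% of the covered bases in the densest 10%. Joining gaps of 5 and 50 kb put 8.33% and 35.3% of peaks in clusters of 10 or more. Over RefSeq bodies 4 of the first 10 genes per length were found again, and 5 where at least 50% of the peak had to lie inside.

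The order of gene body and intergenic shares thus turned with the threshold and the weighting. The cause of these shifts was not tested beyond the fewer peaks that a threshold leaves. The other 21 values stayed within 1.5 times of the value with all peaks or, for results with an interval, inside it. Among them, the covered length was 21.1 Mb at the stricter q and 35.3 Mb after merging, and 8 or 9 of the first 10 genes by covered bases were found again under each alternative. No paired analysis was possible because the peak list has no column per library, and for the same reason no library could be left out. The read depth behind the list is unknown, so a region without a peak was not detected at this depth rather than shown to lack the mark.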

Other observations

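Some long stretches hold no peak in the list used here, and their gene content differs widely. The longest gaps between peaks were 43333694 to 62818121 on chromosome 9 (19.5 Mb, 5 protein-coding genes), 125184669 to 143184488 on chromosome 1 (18.0 Mb, no RefSeq gene) and 17076456 to 34050255 on chromosome 15 (17.0 Mb, 453 RefSeq genes, 71 of them protein-coding). A gap of 10.0 Mb followed on chromosome 16, with no RefSeq gene, and 2 gaps of 6.47 and 6.46 Mb on chromosome 18, with 12 and 2 protein-coding genes. The third of these is the only one of the 6 with more than 12 protein-coding genes. Whether reads could be placed throughout these gaps was not examined, so the gaps are not shown to lack the mark.

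Of the 198 windows of 1 Mb with 21 or more protein-coding genes, 19 had no peak (9.60%). That share was near the 11.4% of all windows, so windows without a peak were not more frequent among gene-rich ones. Chromosomes 6 and 19 had 4 each and chromosome 1 had 3. The window with the most genes was 31 to 32 Mb on chromosome 6, with 57 protein-coding genes, followed by 67 to 68 Mb on chromosome 16 (44), 7 to 8 Mb on chromosome 8 (42), 54 to 55 Mb on chromosome 19 (41) and 2 to 3 Mb on chromosome 16 (40). Chromosome 19 thus held both windows covered over more than 10% of their bases and gene-rich windows without a peak.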
